A study of Mus musculus with 28 samples.

Results

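Mouse CD4+ T cells given IL-2 for 0.5 h were compared with the same kind of cells given IL-21 for 0.5 h, as 1 RNA-seq library a side. These are 2 of the 28 samples of the series and 2 of its 9 RNA libraries, chosen by their treatment and time labels. The other RNA libraries are a control without cytokine and the same 2 cytokines at 2, 4 and 24 h, 1 library each. The labels give no time for the control, so it is not matched in time to any treated library. The 19 chromatin immunoprecipitation samples are not analysed here. All RNA libraries came from CD4+ T cells of the spleen of wild-type C57BL/6 mice. Per the labels' protocols these cells were purified with magnetic kits, activated on plate-bound anti-CD3 (2 µg/ml) in the presence of anti-CD28 (1 µg/ml) over 3 days, given a night of rest, and treated. Every group, the control included, had therefore been activated through the T cell receptor before any cytokine was added. The labels tie cytokine doses to the chromatin cultures, so no dose is attached to the RNA values. How many mice or cultures stand behind a library is not given in the sources used here.

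IL-2 binds a receptor of alpha, beta and common gamma chains and signals through JAK1 and JAK3, mainly to STAT5, and also through the RAS-MAPK and PI3K pathways. IL-21 binds its own receptor chain paired with the same common gamma chain and signals mainly to STAT3. Within minutes of such signals immediate early genes are transcribed without new protein synthesis, followed by feedback inhibitors such as the SOCS proteins and the dual-specificity phosphatases that switch the pathways off again.

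The authors' totals were 29.5 M reads for IL-2 at 0.5 h, 34.3 M for IL-21 at 0.5 h and 34.4 M for the control, within a range of 29.5 to 44.3 M over the 9 libraries. One read in a transcript of 1 kb was worth 0.0339 RPKM (reads per kilobase of transcript, scaled to the library total) with IL-2 and 0.0291 RPKM with IL-21. The markers matched the labelled cell type: Cd4 stood at 207 RPKM in the control, 208 RPKM with IL-2 and 189 RPKM with IL-21. The 11 CD4 T cell markers summed to 2291, 2339 and 2128 RPKM in the same order. The 10 measured B cell markers summed to 63.2, 61.7 and 59.5 RPKM, the 5 macrophage markers to 12.5, 12.6 and 11.1 RPKM and the 2 CD8 markers to 9.73, 10.9 and 8.19 RPKM. The 3 measured NK markers, Gzma, Klrd1 and Eomes, which activated T cells can also express, summed to 201, 190 and 210 RPKM, with Gzma at 191, 183 and 200 RPKM and Ncr1, Klrb1c, Klra8 and Klre1 under 1 RPKM. Of 7 dendritic markers Flt3 and Itgax were measured and summed to 1.81, 1.81 and 1.56 RPKM, and Clec9a and Cd209a had 0 reads in both cytokine libraries. The 2 measured erythroid markers summed to 2.45, 0.878 and 1.32 RPKM. On the log2(RPKM + 1) scale used below, no measured gene of the 7 marker lists differed by 2-fold. Without the added 1 RPKM, Eomes with IL-2 was 2.08 (1.71 to 2.54) times its level with IL-21. In bulk RNA, fewer cells that express a gene and less RNA per cell cannot be told apart. With 1 library a condition there is no replicate check and no p-value. The intervals given are 95% exact conditional binomial intervals of the ratio of read counts and cover counting error only.

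The upstream sequences of 5 genes are shown. Lta, Tnf and Lif were among the most different genes on the IL-2 side, Zfp36 led the IL-21 side, and Socs3, the feedback inhibitor of STAT3 signalling, is a gene under 2-fold that was above control with both cytokines. Each is the 250 bases before the start site, 5′ to 3′ on the gene's strand, from the RefSeq promoter table of GRCm38.p6. The windows of Lif, Lta, Tnf, Zfp36 and Socs3, in that order, are chr11:4257318-4257567 (plus strand), chr17:35205352-35205601 (minus strand), chr17:35202008-35202257 (minus strand), chr7:28379229-28379478 (minus strand) and chr11:117969367-117969616 (minus strand). Capitals mark matches, on either strand, to the STAT motif TTCNNNGAA, the AP-1 motif TGANTCA, the cyclic AMP response element (CRE) TGACGTCA, the EGR motif GCGGGGGCG, or the serum response factor site known as the CArG box.
Lif: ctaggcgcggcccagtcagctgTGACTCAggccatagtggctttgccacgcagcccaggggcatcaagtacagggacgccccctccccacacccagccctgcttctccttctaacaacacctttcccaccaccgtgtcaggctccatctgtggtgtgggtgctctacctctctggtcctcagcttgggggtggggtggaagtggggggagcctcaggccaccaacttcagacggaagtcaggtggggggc
Lta: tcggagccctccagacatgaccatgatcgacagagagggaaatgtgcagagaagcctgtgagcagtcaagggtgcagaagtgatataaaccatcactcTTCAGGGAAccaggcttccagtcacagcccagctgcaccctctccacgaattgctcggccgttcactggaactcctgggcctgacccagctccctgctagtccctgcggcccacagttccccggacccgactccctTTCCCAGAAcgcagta
Tnf: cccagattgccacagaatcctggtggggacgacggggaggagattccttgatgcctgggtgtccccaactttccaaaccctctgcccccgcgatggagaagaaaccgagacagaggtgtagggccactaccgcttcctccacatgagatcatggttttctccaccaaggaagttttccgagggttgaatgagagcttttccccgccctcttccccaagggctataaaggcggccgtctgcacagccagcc
Zfp36: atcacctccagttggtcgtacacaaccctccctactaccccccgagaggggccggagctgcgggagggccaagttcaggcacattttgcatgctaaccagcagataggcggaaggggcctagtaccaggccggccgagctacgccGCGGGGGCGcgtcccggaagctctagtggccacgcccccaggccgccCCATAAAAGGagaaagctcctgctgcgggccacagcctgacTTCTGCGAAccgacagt
Socs3: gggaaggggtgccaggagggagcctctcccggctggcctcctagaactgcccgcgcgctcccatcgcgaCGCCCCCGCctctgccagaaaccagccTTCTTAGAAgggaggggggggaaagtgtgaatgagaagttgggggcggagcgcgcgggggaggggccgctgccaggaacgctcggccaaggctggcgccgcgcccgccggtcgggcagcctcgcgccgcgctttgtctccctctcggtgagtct

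The Lta window held 2 STAT matches, starting 152 and 16 bases before the start site. The Zfp36 window held a STAT match at 17, a CArG box at 58 and an EGR match at 105 bases, Socs3 a STAT match at 154 and an EGR match at 181, and Lif an AP-1 match at 228 bases and no STAT match. The Tnf window shown held none of these motifs, nor did those 250 bases of Dusp6, Spry1 and Cish, and of 6 windows of Sgk1 1 held a STAT match. A match describes letters and is neither a bound site nor a cause. Of the 24 genes on the IL-2 side 18 had a window in the table (26 windows of 300 bases, 250 before and 50 after the start), and of the 32 on the IL-21 side 23 had one (30 windows). Id1, Egr1 and Il10 had no window, so they were not searched and enter none of the shares below. TTCNNNGAA was found in 3 of the 26 IL-2 windows (11.5%), 2 of the 30 IL-21 windows (6.67%) and 7.05% of the windows of all genes measured. With so few windows on each side, 1 window more or less changes these shares much. TGACGTCA was in 3 IL-2 windows (11.5%; Dusp1, Maff and Plk2), in 0 IL-21 windows and in 3.23% of all. The CArG box was in 15.4% of the IL-2 windows, all of them windows of Egr2, in 3.33% of the IL-21 windows (Zfp36) and in 1.32% of all. The 6-letter E-box CACGTG, which can lie inside longer motifs, was in 15.4% and 16.7% against 10.2% of all, and the SP/KLF box GGGCGGGG, whose letters overlap those of the EGR motif, in 38.5% and 16.7% against 32.3%. The EGR motif was in 11.5% and 3.33% against 5.25%, and its 3 IL-2 windows were of Klf4 and Fam46a only. The AP-1 motif was in 3.85% and 3.33% against 4.86%. The stricter STAT motif TTCCNGGAA, a subset of TTCNNNGAA, was in 3.85% and 0% against 1.29%.

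After 0.5 h the transcriptomes with IL-2 and with IL-21 were close, and the genes that separated them were few. A gene was counted where log2(RPKM + 1) with IL-2 differed from that with IL-21 by 1 or more, which is 2-fold on that scale and understates the change of low genes. Of 11046 genes that reached 1 RPKM in at least 1 of the 9 libraries, 56 did so (0.507%): 24 were higher with IL-2 (0.217% of all measured) and 32 were higher with IL-21 (0.29%). With library scaling by TMM (trimmed mean of M values) or by median of ratios, 19 were higher with IL-2 and 44 with IL-21, as either moved the median difference of all genes by -0.08. After a correction for transcript length the split was 19 and 42. Without such scaling or correction the median over all genes was 0.08, the median size of a difference was 0.16, and 10728 genes (97.1%) lay within 1.5-fold. Equal levels lay outside the counting interval for all 56, as they did for 6528 of the 11046 genes, most of which differed by far less than 2-fold.

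**Figure D1:**
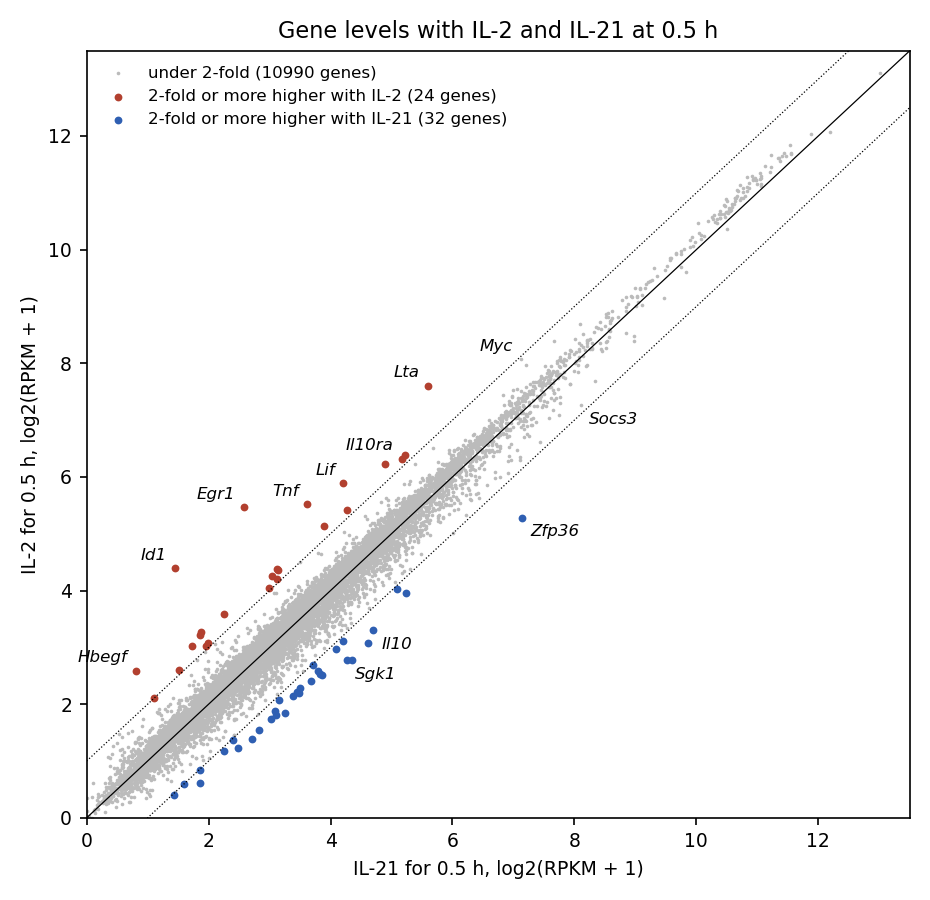
Each point is 1 of 11046 genes, with its level after 0.5 h of IL-21 on the horizontal axis and after 0.5 h of IL-2 on the vertical axis, both as log2(RPKM + 1); solid and dotted lines mark equal levels and 2-fold. The 24 genes higher with IL-2 (red) include Id1, Egr1, Lta and Tnf, and among the 32 higher with IL-21 (blue) Zfp36 lies at by far the highest level.

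The gene that differed most was Id1 (NM_010495, chromosome 2), an inhibitor of basic helix-loop-helix transcription factors. It stood at 0.543 RPKM in the control, 20.1 RPKM with IL-2 and 1.73 RPKM with IL-21, from 17, 540 and 54 reads. IL-2 exceeded IL-21 by 11.6-fold (8.79 to 15.7). The high level with IL-2 was seen at 0.5 h only: over 2, 4 and 24 h the levels were 0.945, 1.33 and 0.884 RPKM with IL-2, against 0.322, 0.45 and 0.319 RPKM with IL-21. IL-2 was still the higher at each of these times, at levels where the pseudocount of 1 RPKM understates the fold. Its relatives behaved otherwise, as Id2 differed by -0.46 and Id3 by 0.25 in log2(RPKM + 1), IL-2 minus IL-21, and Id3 was below its control level of 13 RPKM with both cytokines (5.23 and 4.25 RPKM). Id1 was also the only 1 of 15 measured genes of a TGF-beta and BMP response list past 2-fold, in a list with a median of -0.00.

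Immediate early transcription factors followed. Egr1 (NM_007913, chromosome 18), a zinc-finger factor induced by growth factor signals, was at 5.01 RPKM in the control, 43.1 RPKM with IL-2 and 4.95 RPKM with IL-21. With IL-21 it was at 0.988 times control, and IL-2 exceeded IL-21 by 8.71-fold (7.94 to 9.56). Egr2, its close relative, read 2.64, 8.62 and 2.68 RPKM in the same order, which is 1.02 times control with IL-21. Maff, a small MAF factor, read 3.47, 11 and 3.79 RPKM, Ier2, an immediate early nuclear protein, 50.4, 82.1 and 36.4 RPKM, and Klf4, a Krüppel-like factor, 4.34, 7.12 and 2.89 RPKM. For Ier2 and Klf4 the IL-21 value was below the control and the IL-2 value above it. Fos, the AP-1 subunit, fell just short of the 2-fold line with 1.68, 6.58 and 2.83 RPKM and a difference of 0.99. In the list of immediate early genes 5 of 27 measured genes were 2-fold higher with IL-2 and 1, Zfp36, was higher with IL-21. Of all genes 0.217% and 0.29% were. Jun, another AP-1 subunit, was near the line on the IL-21 side with 24.2, 39 and 73.5 RPKM and a difference of -0.90. The list's median difference was 0.49, beside 0.08 over all genes, and 0.29 with a filter at 5 RPKM. By sign, 18 genes were on the IL-2 side and 9 on the IL-21 side, beside 64.2% and 35.8% of all genes.

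Phosphatases and inhibitors that damp MAP kinase signalling formed the next group. Dusp6, which dephosphorylates ERK in the cytoplasm, was at 17.7 RPKM in the control, 34.3 RPKM with IL-2 and 13.9 RPKM with IL-21. Dusp1, a nuclear MAP kinase phosphatase, read 10.6, 19.6 and 7.85 RPKM. Dusp4, also nuclear, read 14.6, 17.5 and 7.75 RPKM. In all 3 the control lay between the cytokines, and for Dusp4 most of the distance was the lower level with IL-21. Spry1, which restrains signalling from receptor tyrosine kinases, read 1.66, 8.28 and 2.62 RPKM. These were 4 of 18 measured genes past 2-fold on the IL-2 side, with 0 on the IL-21 side, beside 0.217% and 0.29% of all genes. The list is named ERK feedback, but not all of its phosphatases act on ERK alone or mainly. By sign 11 of the 18 were on the IL-2 side, beside 64.2% of all genes, and Dusp7, at 7.33, 6.26 and 9.47 RPKM, was among the 7 that were not. The list median of 0.33 became 0.10 without the filter on low values and 0.68 with a filter at 5 RPKM. Dusp2 and Dusp5 differed by 0.67 and 0.53, and Dusp2 was below its control of 107 RPKM with both cytokines, at 57.5 RPKM with IL-2 and 35.8 RPKM with IL-21.

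Several cytokine genes were past 2-fold on the IL-2 side, and Lta stood at the highest level of all 24 genes. Lta (NM_010735, chromosome 17), which encodes lymphotoxin alpha, was at 22.4 RPKM in the control, 194 RPKM with IL-2 and 47.3 RPKM with IL-21. The IL-2 level was 4.1 (3.91 to 4.3) times the IL-21 level. Tnf, the neighbouring gene with no other between them in the RefSeq gene table, read 10.9, 44.8 and 11.3 RPKM, a ratio of 3.95 (3.62 to 4.33). Lta was thus above control with both cytokines, and Tnf with IL-21 was at 1.04 times control. Ltb, which encodes the partner chain lymphotoxin beta, differed by 0.59. Lif, an IL-6 family cytokine, read 2.48, 58.5 and 17.5 RPKM, which is 23.6 times control with IL-2 and 7.05 times control with IL-21. Il4, the Th2 cytokine (listed transcript NR_027491), read 5.97, 19.7 and 7.67 RPKM. Unlike Lif, it was near control with IL-21, at 1.28 times. Il13, the gene next to Il4, had a difference of 0.96 and is named although it lies under the line, because it was noticed after its values were seen: 2.8, 7.34 and 3.28 RPKM. Ccl4, a chemokine of low level near the line on the IL-21 side, read 0.749, 1.75 and 4.33 RPKM. Fasl, the death ligand, read 3.04, 5.08 and 1.85 RPKM. Hbegf, an EGF receptor ligand, read 0.331, 5.01 and 0.748 RPKM, a ratio of 6.7 (5.09 to 8.94). Of 26 measured cytokine and chemokine ligands 5 were higher with IL-2 (Lta, Tnf, Lif, Il4 and Fasl) and 1 with IL-21 (Il10) by 2-fold, beside 0.217% and 0.29% of all genes. The median of these ligands was 0.18. By sign alone 16 were on the IL-2 side and 10 on the IL-21 side, and 64.2% of all genes were on the IL-2 side. The list's median was 0.09 without the filter on low values or with median-of-ratios scaling.

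The other members of the IL-2 side were of several kinds. Il10ra, the ligand-binding chain of the IL-10 receptor, read 17.8 RPKM in the control, 79.1 RPKM with IL-2 and 35.1 RPKM with IL-21. Both cytokines were above control, and IL-2 was 2.26 (2.17 to 2.34) times IL-21. Gtf2b, the general transcription factor TFIIB, read 27.1, 74.1 and 28.8 RPKM, so that a basal factor was at its control level with IL-21. Trib3 and Sesn2, both known as stress-response genes, read 2.62, 7.13 and 2.32 RPKM, and 7.28, 18.1 and 7.27 RPKM. For these as well, IL-2 was the condition that stood apart. Fam46a (Tent5a in RefSeq), a poly(A) polymerase, read 15.2, 41.5 and 18.4 RPKM. The polo-like kinases Plk2 and Plk3 read 5.14, 15.6 and 6.99 RPKM, and 3.96, 7.39 and 2.99 RPKM. Akr1c18, a steroid dehydrogenase, was the last gene inside the line, at 1.91, 3.3 and 1.14 RPKM, and Cd40lg the first outside it, at 11.3, 21.7 and 10.3 RPKM.

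Against the control, the IL-2 side was above it with IL-2 and on either side of it with IL-21. The control library is shared by both comparisons, so the values are given side by side. All 24 genes were above control with IL-2, and 16 of them by 2-fold or more, where 44 of all genes (0.398%) were. Since the 24 were chosen for a higher level in this same IL-2 library than with IL-21, this is a description. With IL-21, 13 were above and 11 below control, and 2, Lif and Lta, were 2-fold above, where 36 of all genes (0.326%) were. The median differences from control were 1.41 with IL-2 and 0.03 with IL-21.

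**Figure D2:**
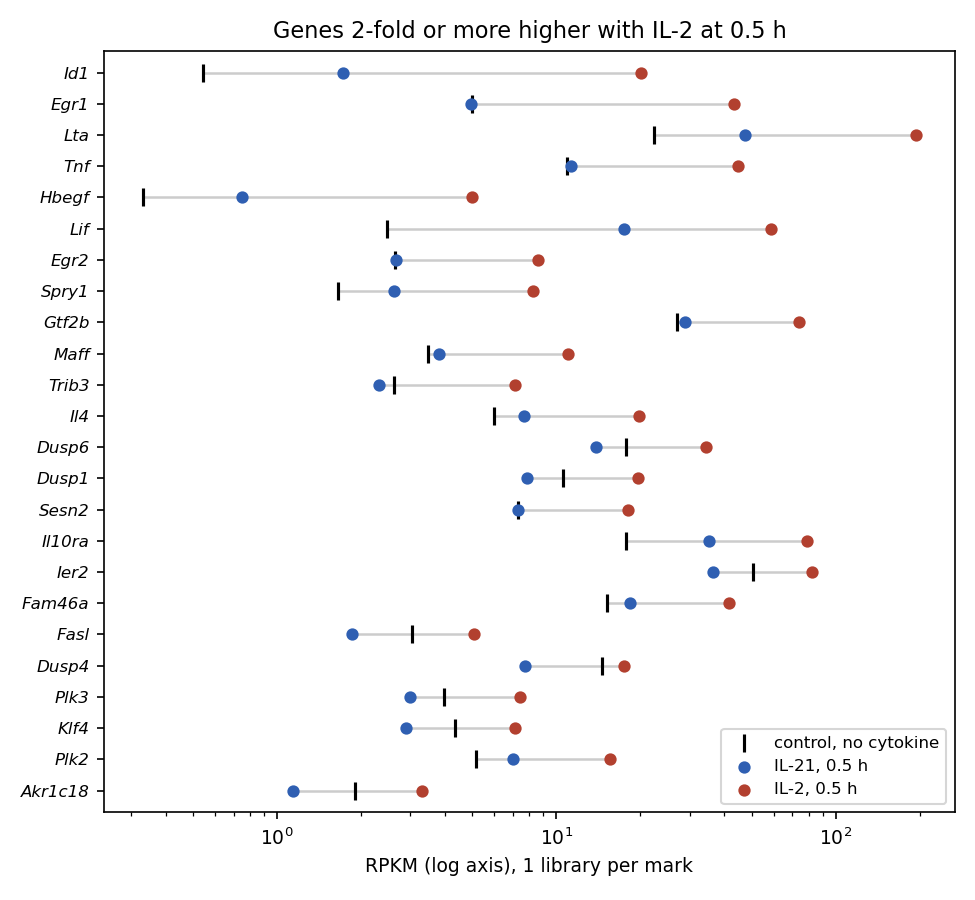
For each of the 24 genes 2-fold or more higher with IL-2, the level in RPKM (log axis) is shown in the control (black tick), with IL-21 (blue) and with IL-2 (red), 1 library each. The red points are the highest of the 3 for all 24 genes, while the blue points lie on either side of the ticks (13 above, 11 below).

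Zfp36 (NM_011756, chromosome 7) led the IL-21 side. It encodes tristetraprolin, which binds AU-rich elements in messenger RNA, those of Tnf among them, and brings about their decay. It was at 38.1 RPKM in the control, 37.9 RPKM with IL-2 and 140 RPKM with IL-21, from 8505 reads with IL-21. The ratio of IL-21 to IL-2 was 3.71 (3.53 to 3.89), and IL-2 left the gene at 0.993 times control. Its relatives Zfp36l2 and Zfp36l1 differed in the same direction without reaching 2-fold: Zfp36l2 read 101, 63 and 109 RPKM and Zfp36l1 36.4, 30.4 and 44.7 RPKM in the control, with IL-2 and with IL-21. In the list of RNA decay factors 7 of 8 measured genes were on the IL-21 side, where 35.8% of all genes were, and the median was -0.38.

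Other genes of the IL-21 side were of several kinds and likewise above control with IL-21. Sgk1, a serine/threonine kinase, read 2.99 RPKM in the control, 5.87 RPKM with IL-2 and 18.3 RPKM with IL-21. The IL-21 level was 6.12 times control. Il10, the anti-inflammatory cytokine, read 3.79, 8.83 and 25 RPKM, so that both cytokines were above control and IL-21 was 2.83 (2.51 to 3.21) times IL-2. Its receptor chain Il10ra was on the IL-2 side, as given above. Tiparp, an ADP-ribosyltransferase induced through the aryl hydrocarbon receptor, read 4, 3.61 and 10.2 RPKM. Pmaip1, the pro-apoptotic BCL2 family member NOXA, read 6.62, 4.32 and 11.8 RPKM and was the only 1 of 15 measured BCL2 family genes past 2-fold. Tha1, a threonine aldolase gene, read 3.91, 3.87 and 10.3 RPKM, at control level with IL-2.

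Most genes of the IL-21 side, Zfp36, Tiparp, Pmaip1 and Tha1 included, had the control between the cytokines. This held for 30 of the 32, beside 6409 of all 11046 genes, and since the 32 were chosen for a distance between the cytokines it is a description. Sh3bgrl, a small thioredoxin-fold protein gene, read 18.8 RPKM in the control, 14.5 RPKM with IL-2 and 36.7 RPKM with IL-21. Gt(ROSA)26Sor, a non-coding transcript, read 5.41, 4.71 and 13.6 RPKM. Gm13212 read 11.2, 5.85 and 19.4 RPKM, and Gm13157 (Zfp984 in RefSeq) 10.6, 7.39 and 23.4 RPKM. All 32 were above control with IL-21, 8 of them by 2-fold. Only Sgk1 and Il10 were above it with IL-2. The median differences from control were -0.45 with IL-2 and 0.78 with IL-21. The members just inside the line were Gm5141 at 1.34, 0.507 and 2.03 RPKM and 2210404O09Rik at 2.49, 1.6 and 4.26 RPKM, and just outside were Iigp1, an interferon-induced GTPase, at 32.6, 31.4 and 63.4 RPKM and Gm13051 at 0.637, 0.371 and 1.73 RPKM.

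**Figure D3:**
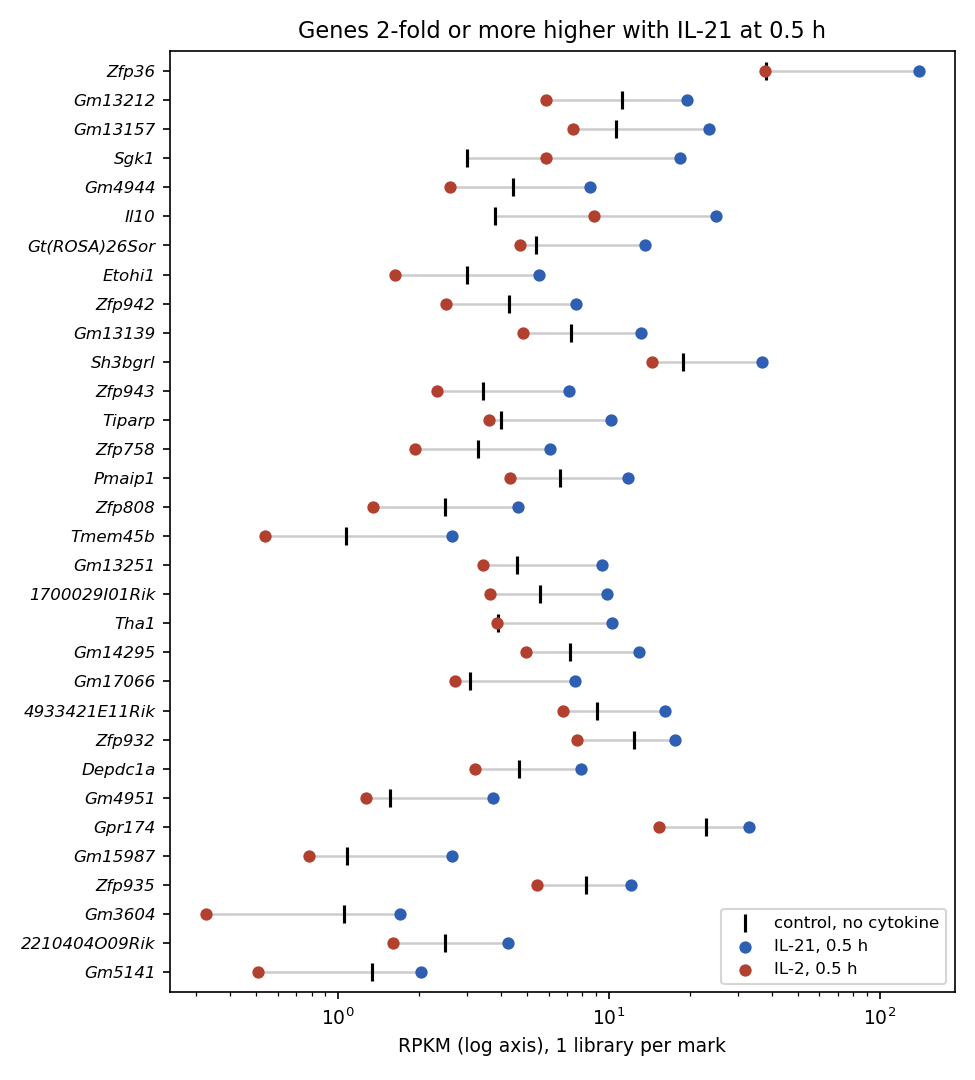
For each of the 32 genes 2-fold or more higher with IL-21, the level in RPKM (log axis) is shown in the control (black tick), with IL-21 (blue) and with IL-2 (red), 1 library each. The control tick lies between the cytokines for 30 genes, and Sgk1 and Il10 are the exceptions with both cytokines above it.

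A shared feature of the IL-21 side was zinc-finger genes. By their RefSeq symbols 12 of the 32 genes (37.5%) were numbered zinc-finger protein genes, a class that made up 274 of all genes measured (2.48%), and 0 of the 24 genes on the IL-2 side were. The class was named after the members were seen, leaves out Zfp36, and is described without a test. Many of its members are KRAB zinc-finger repressors that lie in clusters of near-identical copies. On chromosome 17, 2210404O09Rik, Zfp942, Zfp943, Gm4944 and Zfp758 followed each other with 1, 0, 9 and 2 genes between neighbours. On chromosome 4 the class members Gm13251, Gm13139 and Gm13157 were further apart, with 24 and 20 genes between neighbours. On chromosome 13 Zfp808, Gm3604, Zfp935 and Gm5141 had 9, 3 and 9 between them, and of these Gm3604 and Gm5141 are not in the class by symbol. How the counting divided reads among such copies is not given in the sources used here, so the share of each copy is uncertain. Over all 274 genes of the class the median difference at 0.5 h was -0.06, beside 0.08 for the other genes, and the 10th percentile was -0.70 beside -0.27.

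Later libraries, none of which enters the 0.5 h comparison, were read for the same genes. Of all genes, 71 were 2-fold higher with IL-2 after 2 h (0.643%) and 1087 after 24 h (9.84%), and 76 (0.688%) and 670 (6.07%) were 2-fold higher with IL-21. After 4 h 431 genes were 2-fold apart either way (3.9%), 247 of them higher with IL-2 and 184 with IL-21. The IL-2 side kept its direction: all 24 genes were higher with IL-2 at both 2 and 4 h, and 21 were at 24 h, where 54.2%, 50% and 54% of all genes were at those times. By 2-fold or more it was 12, 10 and 10 of the 24. Lta, Tnf, Hbegf, Lif, Il4, Dusp6, Fam46a and Akr1c18, 8 of the 24 genes, were past 2-fold at all 4 times. No gene outside the 24 could be, since 0.5 h is 1 of the 4 times.

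The time courses of these 8 genes differed in shape. Lta read 257, 283 and 130 RPKM with IL-2 at 2, 4 and 24 h and 15, 10.1 and 7.41 RPKM with IL-21, so that the difference grew from 2.01 at 0.5 h to 4.67 at 4 h. Lif read 53.2, 62.5 and 78.2 RPKM with IL-2 and 5.42, 3.17 and 3.2 RPKM with IL-21. The early level of Lif with IL-21, 17.5 RPKM, was its highest of the 4 times under that cytokine. Akr1c18 went from 3.3 RPKM with IL-2 at 0.5 h to 8.3, 19.8 and 31 RPKM, while with IL-21 it stayed between 0.923 and 1.24 RPKM. Tnf was at 31.9, 31.3 and 22.4 RPKM with IL-2, below its 0.5 h level, and at 4.33, 4.6 and 5.04 RPKM with IL-21. With IL-21, Tnf and Lta were thus below their control levels of 10.9 and 22.4 RPKM at all 3 later times. For these and all later levels set against control, cytokine effect and change with time in culture cannot be told apart.

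Several immediate early members lost the 2-fold difference. Egr1 was at 2.53 RPKM with IL-2 and 2.21 RPKM with IL-21 at 2 h, both below the control, and at 24 h it was higher with IL-21, at 3.72 against 1.33 RPKM. Maff was at 0.925 and 0.803 RPKM at 2 h, and Plk2 at 4.58 and 4.2 RPKM. On the log2(RPKM + 1) scale these are the genes for which 0.5 h was the only time of the 4 with a 2-fold difference towards IL-2, together with Id1, Egr2, Dusp1, Sesn2, Ier2, Fasl, Plk3 and Klf4. Where later levels were low, the pseudocount of 1 RPKM understates the fold. At 2 h Id1 read 0.945 RPKM with IL-2 and 0.322 RPKM with IL-21, and Klf4 1.69 and 0.697 RPKM.

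The IL-21 side split at 4 h. Of its 32 genes 31 were higher with IL-21 after 2 h, only 7 after 4 h and again 24 after 24 h, beside 45.8%, 50% and 46% of all genes. By 2-fold or more it was 4, 3 and 6 of the 32, beside 76, 184 and 670 of all 11046 genes. Most of the difference was thus already gone at 2 h, where the median of the 32 was -0.28. The 7 genes higher with IL-21 at 4 h were Zfp36, Sgk1, Il10, Tiparp, Pmaip1, Tha1 and Gm15987. The grouping was made from these values and is a description. Zfp36 was at 33.1, 62.3 and 75.8 RPKM with IL-21 at 2, 4 and 24 h and at 8.39, 12.7 and 15.9 RPKM with IL-2. Against its control level of 38.1 RPKM, Zfp36 was lower with IL-2 at each later time. With IL-21 it was lower at 2 h and higher at 4 and 24 h. Its difference was -1.86, -1.86, -2.20 and -2.18 over the 4 times. Sgk1 and Tha1 were likewise past 2-fold at all 4 times, and no other of the 32 genes was. Il10 was not: it read 13.9, 10.5 and 7.9 RPKM with IL-21 and 6.53, 9.19 and 10.8 RPKM with IL-2, so that by 24 h IL-2 was the higher.

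The other 25 genes, the 12 zinc-finger genes among them, were all higher with IL-2 at 4 h, 9 of them by 2-fold. Their median difference over the 4 times was -1.23, -0.25, 0.88 and -0.27. Their median ratio to control with IL-2 was 0.657, 1.49, 1.77 and 1.5 over the times in order, and with IL-21 it was 1.83, 1.8, 0.78 and 1.81. By these medians the IL-2 library of 0.5 h and the IL-21 library of 4 h were below control for these genes. The genes were chosen for lower values there than with the other cytokine, so this is a description. The other 5 treated libraries besides IL-21 at 0.5 h lay between 1.49 and 1.81. Some nuclear RNAs moved with them at 0.5 h: Xist read 75 RPKM in the control, 57.3 RPKM with IL-2 and 93.7 RPKM with IL-21, Malat1 138, 105 and 152 RPKM, and Neat1 93.3, 67.1 and 103 RPKM. At 4 h Xist and Malat1 were higher with IL-2 (114 against 83.5 RPKM and 126 against 114 RPKM) and Neat1 was not (84.5 against 187 RPKM). Over all 10 measured RNAs of that list the median at 0.5 h was -0.01. Transcript length moved too, as the median difference at 0.5 h was 0.19 in the shortest of 10 length classes and -0.01 in the longest, against -0.10 and 0.04 at 4 h. The part of nuclear RNA and of transcript length in these differences was not tested.

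**Figure D4:**
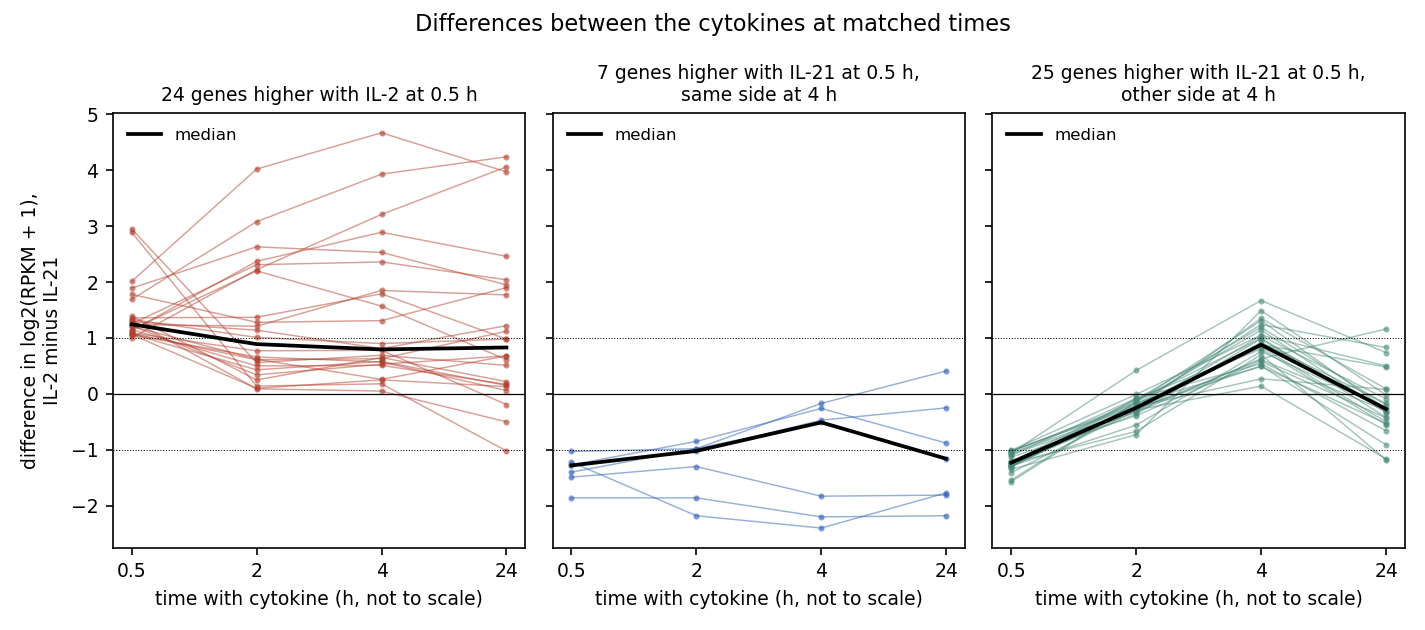
Differences in log2(RPKM + 1), IL-2 minus IL-21, are plotted at 0.5, 2, 4 and 24 h for the 24 genes higher with IL-2 at 0.5 h (left), the 7 higher with IL-21 that were on the same side at 4 h (middle) and the 25 that were on the other side (right); thin lines are genes, black lines medians and dotted lines 2-fold. The medians of the right panel run -1.23, -0.25, 0.88 and -0.27.

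Genes of the JAK-STAT pathway itself differed little, and the medians of STAT5 and STAT3 targets lay on opposite sides of the all-gene median, a contrast that was not tested. The targets are lists of gene names and were not taken from the chromatin samples, so binding in these cells is not implied. The receptor chains were close: Il2ra read 78.5 RPKM in the control, 80.5 RPKM with IL-2 and 81 RPKM with IL-21, Il2rb 169, 203 and 163 RPKM, Il2rg 322, 327 and 293 RPKM, and Il21r 66.4, 81.8 and 100 RPKM. Of 20 measured components and receptors 0 passed 2-fold in either direction, with a median of 0.02 that was -0.08 after TMM or median-of-ratios scaling. Stat3 and Stat5a differed by 0.15 and -0.04.

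Targets of STAT5 had a median difference of 0.33 and 24 of 30 were on the IL-2 side, where 64.2% of all genes were, but only Lta and Lif passed 2-fold, and 0 did on the other side. Cish, a STAT5-induced feedback inhibitor, was at 149 RPKM in the control, 336 RPKM with IL-2 and 203 RPKM with IL-21. Socs1, which inhibits JAK kinases, read 62, 250 and 147 RPKM. Myc, the growth regulator, read 65.1, 269 and 139 RPKM, a difference of 0.95. Each of these was above control with IL-21 as well, and Osm, an IL-6 family cytokine like Lif, read 10.2, 69.3 and 54.5 RPKM with a difference of 0.34, close to the median of the STAT5 targets.

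Targets of STAT3 had a median of -0.26 and 16 of 22 were on the IL-21 side, where 35.8% of all genes were, with Il10 alone past 2-fold. Socs3 read 26.1 RPKM in the control, 153 RPKM with IL-2 and 275 RPKM with IL-21. Prdm1, which encodes BLIMP1, read 5.29, 12.7 and 23.2 RPKM, and Gadd45g, a stress sensor, 19.6, 96.4 and 172 RPKM. Junb, an AP-1 subunit, read 257, 335 and 503 RPKM. All 4 were above control with both cytokines and higher with IL-21. Il21 itself read 14.6, 14.9 and 25.2 RPKM, and Bcl6, a transcriptional repressor that drives the follicular helper fate, was below control with both, at 4.14, 3.2 and 2.82 RPKM. Fos, also listed there, went the other way. The STAT3 and STAT5 lists share genes, Gadd45g and Bcl2l1 among them.

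Most remaining lists lay near the median of all genes. NF-kappaB and feedback genes had a median of 0.22 with Tnf alone past 2-fold, Nfkbiz at 7.3, 31.8 and 17.7 RPKM, and the inhibitor Tnfaip3 on the IL-21 side at 75.6, 62.1 and 103 RPKM. The 8 SOCS genes had a median of 0.05 between Socs1 at 0.77 and Socs3 at -0.84. T helper lineage regulators had a median of 0.09 and 0 past 2-fold, with Gata3, the Th2 regulator, at 55.3, 74.3 and 40.6 RPKM and Eomes, a T-box factor, at 1.02, 2.61 and 1.25 RPKM. FOXO and quiescence genes had a median of -0.01, the MYC network and ribosome biogenesis 0.13, the BCL2 family 0.15 and Id and E proteins 0.12. Housekeeping genes had a median of 0.09, with Actb at 2053, 2407 and 2009 RPKM and Gapdh at 1674, 1775 and 1527 RPKM.

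**Figure D5:**
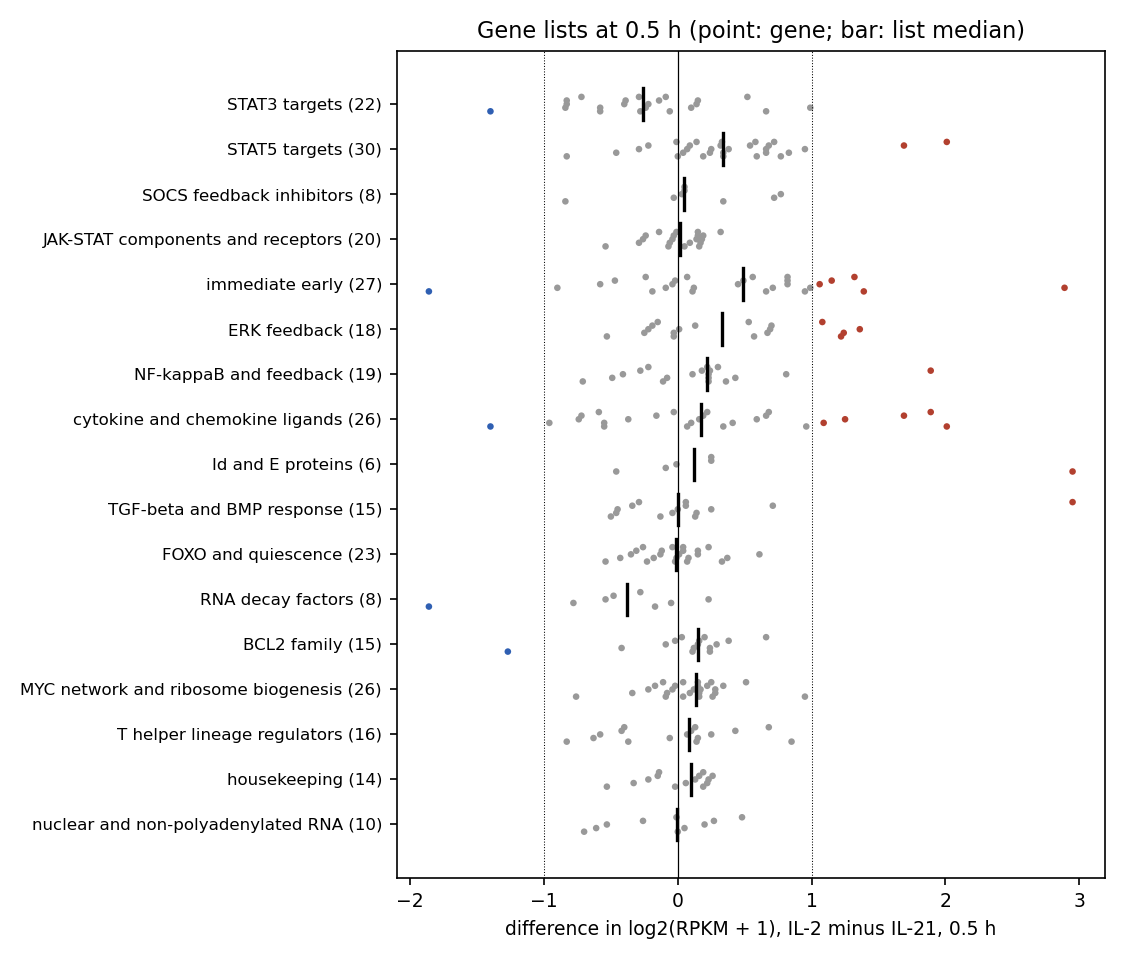
Each point is a gene of a list, placed by its difference in log2(RPKM + 1), IL-2 minus IL-21 at 0.5 h; black bars are list medians, numbers in brackets are genes measured, and dotted lines mark 2-fold. Immediate early genes have a median of 0.49, the list named ERK feedback 0.33 and RNA decay factors -0.38, with single genes such as Id1 far outside their lists.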

How the data were processed

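RNA-seq was measured in 9 libraries, and the 2 libraries of 0.5 h were compared. The submitters' processing notes list SAMtools, HOMER, TopHat2 2.0.11, Bowtie 0.12.9 and the build mm9, without roles. For the annotation, the counter and its strand setting: not given in the sources used here. For each RefSeq transcript the authors deposited a whole-number read count and an RPKM value, per the file headers. In the deposited files RPKM is the count over transcript length and library total.

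Each of 23222 symbols was represented by the transcript of highest mean RPKM, and 746 short RNAs, with the ribosomal precursor Rn45s, were left out. Genes needed 1 RPKM in 1 library. Differences are of log2(RPKM + 1), and 2-fold was the line. Counting intervals came from scipy 1.17.1, scaling factors from edgeR 4.0.16. The steps were tested on simulated data. Of 11046 genes 10885 matched RefSeq (GRCm38.p6) by accession. Named with values are the 15 genes with the largest difference in each direction, listed genes past 2-fold and those nearest the line. A fixed set of pathway genes, up to 3 genes a list, and the genes flagged for a closer look are named too. Il10ra, Fam46a, Plk3, Tha1, Gm15987, Il13, Ccl4, Jun, Dusp7 and the cell type markers beside Cd4 were added after their values were seen. Members and lists were chosen with earlier results of these data known. One gene list is not reported here.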

Additional observations from a re-analysis of the deposited data

Results flagged for a closer look

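For 11 genes past 2-fold at 0.5 h the difference between IL-2 and IL-21 was past 2-fold in the opposite direction at a later time. The change between times was not tested, since each value is from 1 library a side. Egr1 went from 2.89 at 0.5 h to -1.02 at 24 h (log2(RPKM + 1), IL-2 minus IL-21). Of the genes higher with IL-21 at 0.5 h, 9 were higher with IL-2 by 2-fold or more at 4 h: Gm4951 went from -1.06 to 1.67, Gt(ROSA)26Sor from -1.35 to 1.49, Gm17066 from -1.20 to 1.35, Gm13157 from -1.54 to 1.31, Zfp808 from -1.26 to 1.24, Gm14295 from -1.22 to 1.19, Gm13212 from -1.57 to 1.14, Gm5141 from -1.01 to 1.05 and Gm13139 from -1.29 to 1.04. Depdc1a went from -1.08 at 0.5 h to 1.16 at 24 h. At 4 h 431 of all genes (3.9%) were 2-fold apart either way, 247 of them higher with IL-2.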

How the results depend on the processing

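The count of genes past 2-fold depended most on how low and short transcripts were treated. With a pseudocount of 0.1 RPKM it was 122 (55 higher with IL-2, 67 with IL-21), with 0.5 RPKM 79 (37 and 42), and with short RNAs kept 101 (43 and 58), against 56 (24 and 32). It was 63 (19 and 44) with TMM or median-of-ratios scaling, 57 with upper quartile scaling, 56 without a filter, 50 with a filter at 5 RPKM, and 55 with the longest transcript. Correction for transcript length, chosen after seeing the data, gave 61 (19 and 42). Of the 56 genes 49 stayed past 2-fold under every one of these settings that kept them (18 of 24 and 31 of 32); Fasl, Dusp4, Plk3, Klf4, Plk2, Akr1c18 and Etohi1 did not. Of 1292 values of single genes under the alternatives 1115 moved within their counting interval, 177 moved beyond it and 0 changed sign past the line; of 247 list medians 19 moved. No paired analysis was possible because each condition has 1 library. No library could be left out for the same reason. Depth limits only low genes: 3 reads in 1 kb are 0.1017 RPKM with IL-2 and 0.0874 RPKM with IL-21.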
